A study of Mus musculus with 4 samples.

Results

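The 36 genes described here encode the enzymes that build sterols and fatty acids, the proteins that sense the cellular sterol level, and proteins that move sterols within or out of the cell. They were taken by name from the gene names of the array, and all 36 of them were tested, out of 22455 genes tested and 29924 gene names on the array. Of these, 18 belong to sterol synthesis, 5 to sterol sensing, 3 to sterol transport and 10 to fatty acid synthesis. RNA came from ureters of wild-type NMRI mouse embryos at E12.5, whose sex was not determined. The ureters were dissected free of kidney and bladder and grown as explants for 18 h on membranes in medium without serum, with 10 µM IWP-2 or with DMSO (2:1000) as the control. IWP-2 inhibits Porcupine, the acyltransferase that lipid-modifies WNT proteins so that they can leave the cell, and it was added to the medium around the whole explant, mesenchyme and epithelium alike. Each of 4 two-color arrays compared 1 pool of treated ureters with 1 pool of control ureters, with the treated RNA in the red channel on arrays 1 and 3 and in the green channel on arrays 2 and 4. Nothing states whether the pools came from separate cultures or litters, so p-values measure the spread between these pools, which may be in part technical.

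Cholesterol is made from acetyl-CoA through mevalonate, isoprenoid phosphates, squalene and lanosterol, and fatty acids are made from the same acetyl-CoA through malonyl-CoA. Both sets of enzyme genes are known targets of the SREBP transcription factors, which the protein SCAP carries out of the endoplasmic reticulum when sterols are scarce and which INSIG proteins hold back when sterols are plentiful. SREBP2, the product of Srebf2, is known mainly for sterol genes, and SREBP1, the product of Srebf1, mainly for fatty acid genes. Sterol excess acts through the LXR receptors, which are known to raise Abca1, Abcg1, Mylip and Srebf1. Sterols also modify Hedgehog proteins and fatty acids modify WNT proteins, which makes lipid synthesis a relevant branch of metabolism in a tissue patterned by both signals.

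The promoters of the genes that moved most are shown because SREBPs are known to act together with factors that bind CCAAT and GC boxes in such sequences. Each run is 5′ to 3′ on the strand of its gene and covers 250 bases before to 50 after the start, from RefSeq on GRCm38.p6, and 28 of the 36 genes have an entry. In Hmgcs1 (chr13:119690101-119690400, plus strand) capitals mark the match to the sterol response element written as TCACNCCAC. In Tm7sf2 (chr19:6067801-6068100, minus strand), Msmo1 (chr8:64733529-64733828, minus strand), Idi1 (chr13:8885356-8885655, plus strand) and Insig1 (chr5:28071162-28071461, plus strand) capitals mark the CCAAT box on either strand. In Abca1 (chr4:53159846-53160145, minus strand), which holds no CCAAT box in this window, capitals mark the E-box CACGTG. Hmgcs1 was taken as the only one of the genes past the test with a match to the sterol response element, and the other 5 were added by the size of their change after the values were seen.
Hmgcs1: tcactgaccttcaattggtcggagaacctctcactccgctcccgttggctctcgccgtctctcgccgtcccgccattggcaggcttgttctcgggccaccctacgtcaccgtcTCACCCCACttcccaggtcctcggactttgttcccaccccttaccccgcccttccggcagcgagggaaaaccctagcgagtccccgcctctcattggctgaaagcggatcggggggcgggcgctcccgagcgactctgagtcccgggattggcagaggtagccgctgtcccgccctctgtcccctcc
Tm7sf2: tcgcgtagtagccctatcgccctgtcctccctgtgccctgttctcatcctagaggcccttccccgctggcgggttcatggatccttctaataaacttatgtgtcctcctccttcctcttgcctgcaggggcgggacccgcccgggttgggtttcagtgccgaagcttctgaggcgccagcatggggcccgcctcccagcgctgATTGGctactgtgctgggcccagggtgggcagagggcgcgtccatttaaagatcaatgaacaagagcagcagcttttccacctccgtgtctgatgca
Msmo1: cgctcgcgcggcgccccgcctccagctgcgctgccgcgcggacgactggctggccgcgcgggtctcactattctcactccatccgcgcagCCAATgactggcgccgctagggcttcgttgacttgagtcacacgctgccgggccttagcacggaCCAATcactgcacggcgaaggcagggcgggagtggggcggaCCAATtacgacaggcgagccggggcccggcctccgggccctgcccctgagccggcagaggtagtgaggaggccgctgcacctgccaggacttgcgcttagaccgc
Idi1: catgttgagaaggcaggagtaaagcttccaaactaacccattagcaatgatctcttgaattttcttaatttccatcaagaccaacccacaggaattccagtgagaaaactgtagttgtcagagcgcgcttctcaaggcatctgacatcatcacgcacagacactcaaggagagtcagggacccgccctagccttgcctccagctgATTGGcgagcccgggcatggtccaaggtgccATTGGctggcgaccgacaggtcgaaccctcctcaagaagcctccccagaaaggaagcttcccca
Insig1: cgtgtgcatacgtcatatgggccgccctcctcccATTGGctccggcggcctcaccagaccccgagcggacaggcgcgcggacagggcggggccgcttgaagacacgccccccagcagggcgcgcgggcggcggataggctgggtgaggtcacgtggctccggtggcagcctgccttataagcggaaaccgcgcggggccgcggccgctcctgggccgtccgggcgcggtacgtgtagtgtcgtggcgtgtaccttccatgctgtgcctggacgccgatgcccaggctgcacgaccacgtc
Abca1: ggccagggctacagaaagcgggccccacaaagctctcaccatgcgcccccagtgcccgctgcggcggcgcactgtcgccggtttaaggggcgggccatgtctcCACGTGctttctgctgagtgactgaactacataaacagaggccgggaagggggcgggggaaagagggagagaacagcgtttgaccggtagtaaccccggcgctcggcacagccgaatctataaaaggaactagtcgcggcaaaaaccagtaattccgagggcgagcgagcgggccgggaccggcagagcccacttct

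All motifs were searched on both strands, and the matches of one motif could overlap those of another. The strict sterol response element was found in 1 of the 28 genes with a promoter, Hmgcs1, and in 1.43% of the 13321 genes tested on the arrays that have one. The motif CCAAT was found in 14 of 15 sterol synthesis genes, the exception being Acat2, and in 42.1% of the genes tested on the arrays. Fatty acid synthesis genes held a CCAAT box in 4 of 7 cases, namely Acly, Acss2, Fasn and Elovl5. The motif GGGCGG was found in 14 of 15 sterol synthesis genes, in 3 of 7 fatty acid genes and in 60.0% of the genes tested. The E-box was found in 3 of 15 sterol synthesis genes, in 1 of 7 fatty acid genes and in 10.4% of the genes tested. A match describes letters only, and the sterol synthesis genes that did not pass the test, Mvk, Cyp51 and Hsd17b7, each held at least 1 CCAAT box too.

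The arrays were alike within each dye, but the red channel was brighter than the green on every array. Median raw signals were 609 to 711 in red and 368 to 396 in green, over median backgrounds of 69 to 77 and 28 to 29. With the dyes swapped between arrays, they were 368 to 711 for control RNA and 385 to 694 for treated RNA. No spot was saturated, and all 53 probes of the 36 genes were well above background in at least 1 group. All 4 arrays shared 1 slide and 1 scan. Tbx18, a marker of ureteric mesenchyme, and Epcam and Cdh1, markers of epithelium, passed the same filter. Axin2, a direct target of WNT signaling that reports on the treatment, had a mean log2 ratio of -1.56 ± 0.09 (SD, n = 4) with an adjusted p of 1.22e-05.

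Genes of sterol synthesis were higher in the treated explants along nearly the whole pathway, whereas fatty acid genes moved less and in mixed directions. Of the 36 genes, 23 rose and 2 fell at an adjusted p under 0.05 in limma, where 18.1% of all genes tested rose, 15.0% fell and 33.1% were called in either direction. In sterol synthesis 15 of 18 rose and 0 fell, in sterol sensing 4 of 5 rose and 0 fell, and in sterol transport 1 of 3 rose and 1 fell. In fatty acid synthesis 3 of 10 rose and 1 fell. Without regard to the test, 24 of the 36 genes were above 0 on all 4 arrays, as were 22.3% of all genes, and 3 were below 0 on all 4 arrays, as were 21.0% of all genes. The changes were moderate, and none reached 2-fold in the mean. The spread between arrays was alike, with a median SD of 0.099 (log2) over these genes and 0.107 over all genes.

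**Figure D1:**
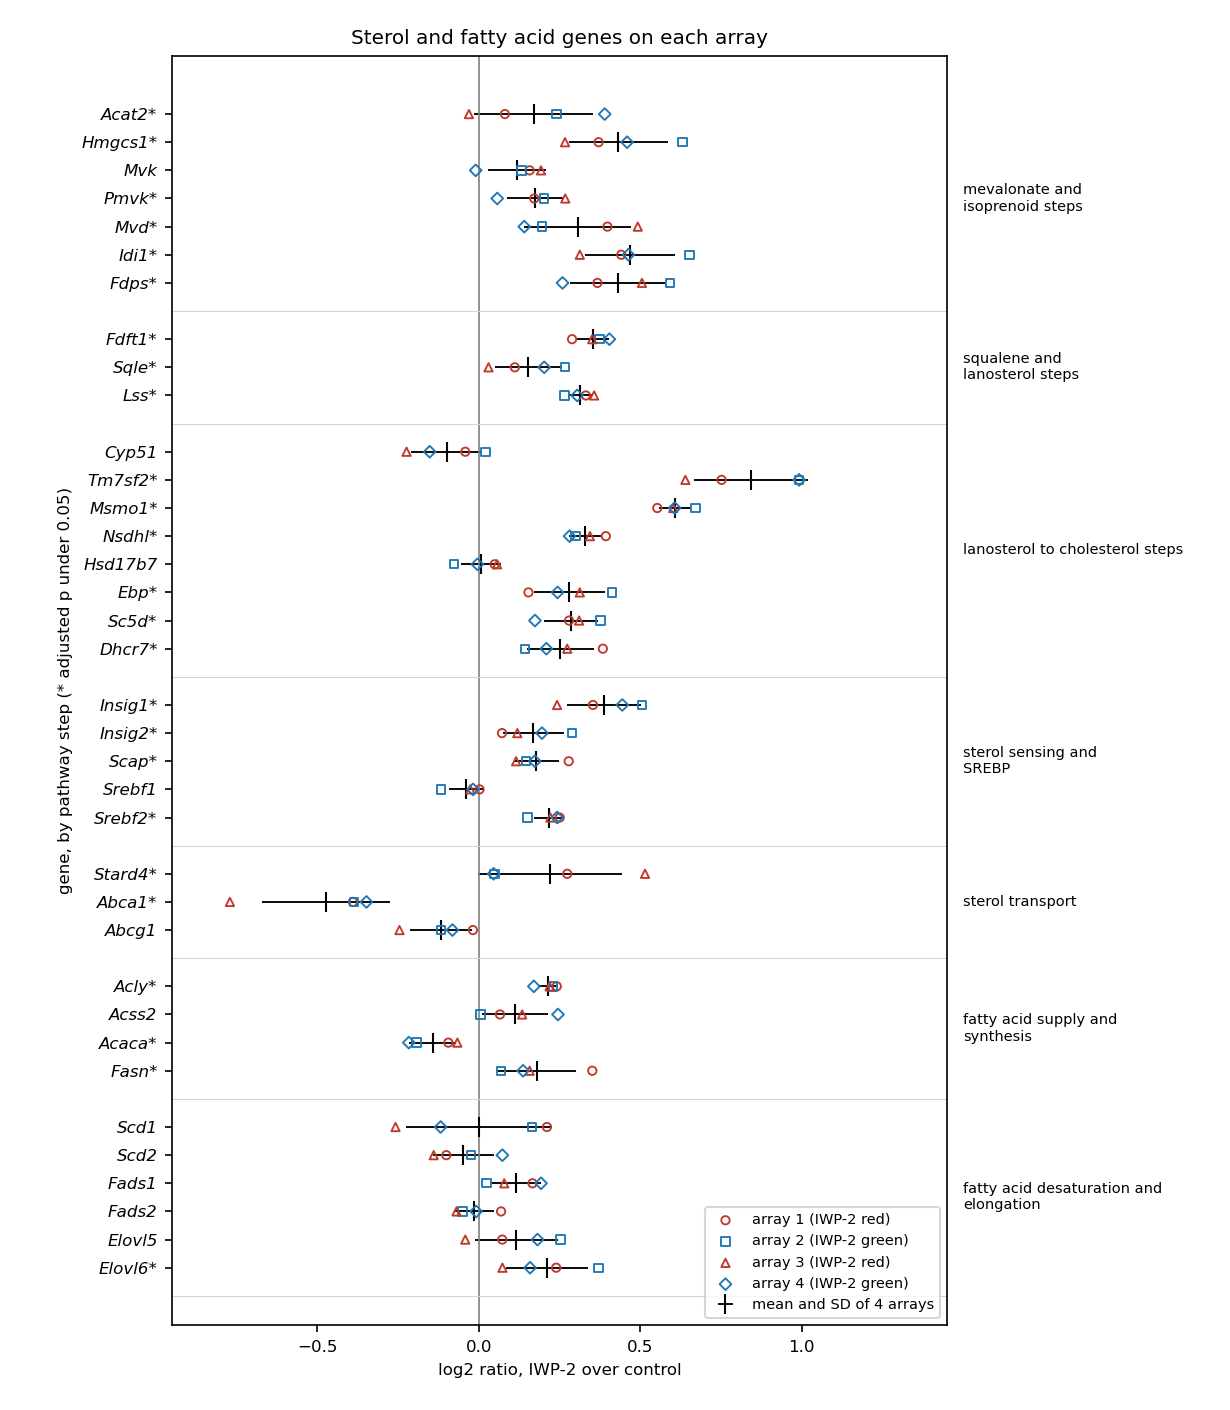
Log2 ratio of IWP-2 over control (x axis) for each of the 36 genes (y axis, ordered by pathway step); open symbols are the 4 arrays, colored by the dye of the treated RNA, the black tick and line are the mean and SD, and an asterisk marks an adjusted p under 0.05. Most sterol synthesis genes lie to the right of 0 on all 4 arrays, with Tm7sf2 and Msmo1 farthest out, while Abca1 lies to the left and the desaturase genes scatter around 0.

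The early steps, from acetyl-CoA to farnesyl diphosphate, rose at 6 of 7 genes. Idi1, the isomerase that supplies the reactive isoprenoid unit, had log2 ratios of 0.44, 0.65, 0.31 and 0.46 on arrays 1 to 4. Its mean of 0.47 ± 0.14 (SD, n = 4, adjusted p = 0.00117) was the highest of this stretch, and all arrays lay on one side of 0. Hmgcs1, the synthase that forms HMG-CoA, had 0.37, 0.63, 0.27 and 0.46, with a mean of 0.43 ± 0.15 (adjusted p = 0.00129). Fdps, which joins isoprenoid units to farnesyl diphosphate, had 0.37, 0.59, 0.50 and 0.26, with a mean of 0.43 ± 0.15 (adjusted p = 0.00372). Array 2 gave the highest ratio for all 3 of these genes, and the lowest came from array 3 or array 4.

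Mvd, the decarboxylase that makes isopentenyl diphosphate, stood at 0.40 and 0.49 on the arrays with treated RNA in red and at 0.20 and 0.14 on those with treated RNA in green. Both dye orders thus gave a ratio above 0 but of different size, and the mean of 0.31 ± 0.17 passed the test (adjusted p = 0.00264). Pmvk, the kinase before it, reached 0.17 ± 0.09 (adjusted p = 0.0271), with values of 0.06 to 0.27. Mvk, the first kinase of the pathway, had 0.16, 0.13, 0.19 and -0.01 and did not pass (mean 0.12, adjusted p = 0.0792, 95% confidence interval 0.01 to 0.22). Acat2, the thiolase at the entry, ranged from -0.03 on array 3 to 0.39 on array 4. It averaged 0.02 with treated RNA in red and 0.32 in green, and its mean of 0.17 ± 0.18 passed narrowly (adjusted p = 0.0317). Without array 1 (adjusted p = 0.127), array 3 (0.0559) or array 4 (0.137) it did not pass, and Pmvk did not without array 2 (0.118) or array 3 (0.115).

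All 3 genes between farnesyl diphosphate and lanosterol rose. Fdft1, the squalene synthase that commits the pathway to sterols, had 0.29, 0.37, 0.35 and 0.40 (mean 0.35 ± 0.05, adjusted p = 0.00133). Lss, the cyclase that forms lanosterol, had 0.33, 0.27, 0.36 and 0.30 (mean 0.31 ± 0.04, adjusted p = 0.00196). These 2 genes were among the tightest between arrays. Sqle, the epoxidase between them and a rate-limiting enzyme of the pathway, had 0.11, 0.27, 0.03 and 0.20, and its mean of 0.15 ± 0.10 was the smallest of the 3 (adjusted p = 0.0299). Its call was lost without any 1 of the 4 arrays, with adjusted p from 0.0631 to 0.122.

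The late steps, from lanosterol to cholesterol, held both the highest values and the genes that did not follow. Tm7sf2, a reductase of the sterol ring whose step can also be taken by Lbr, had 0.75, 0.99, 0.64 and 0.99. Its mean of 0.84 ± 0.18 (adjusted p = 5.91e-05, 95% confidence interval 0.75 to 0.94) was a 1.79-fold rise and ranked 67 among all genes by mean ratio. On the normalized log2 signal scale, its control channel ran from 13.22 to 13.58 and its treated channel from 14.06 to 14.38, so the groups did not overlap. Its probe lies on chromosome 19 at 6062882 to 6062941 (mm9, minus strand), and a second probe gave 0.72 ± 0.06. Lbr itself, a nuclear envelope protein with the same reductase activity, had -0.15, 0.24, -0.29 and 0.11 and did not pass (mean -0.02, adjusted p = 0.717). Lbr is named for its step in the pathway, after its values were seen.

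Msmo1, the methyl sterol oxidase that acts on the methyl groups left by the demethylase Cyp51, had 0.55, 0.67, 0.60 and 0.61. This gene combined a large mean with a small spread (0.61 ± 0.05, 1.52-fold, adjusted p = 0.000195), and its control channel (14.43 to 14.58) and treated channel (15.03 to 15.21) did not overlap. Nsdhl, which acts next on the same methyl groups, had 0.39, 0.30, 0.34 and 0.28 (mean 0.33 ± 0.05, adjusted p = 0.00167). Its other probe gave 0.29 ± 0.08. Ebp, the sterol isomerase, Sc5d, a desaturase of the ring, and Dhcr7, the last reductase before cholesterol, rose by means of 0.28, 0.28 and 0.25, with every array above 0 and values from 0.14 to 0.41.

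Cyp51, the demethylase that opens this stretch, and Hsd17b7, the ketosteroid reductase in its middle, did not pass the test. For Cyp51 the 4 ratios were -0.04, 0.02, -0.22 and -0.15, so that 3 of 4 arrays lay below 0, and the mean of -0.10 did not pass (adjusted p = 0.187, 95% confidence interval -0.22 to 0.02). That interval ends below the mean ratio of every sterol synthesis gene that passed. Hsd17b7 had 0.05, -0.08, 0.06 and -0.0047 with its brightest probe (mean 0.0059, adjusted p = 0.923), and the sign of so small a mean turned under median centering, in the mean of all probes, in the deposited series table and without array 4. Its 2 other probes gave 0.06 ± 0.16 and, for the dimmest, -0.18 ± 0.09, and the dimmest passed the test over all probes (adjusted p = 0.0194). The 3 probes of this gene thus disagreed in sign.

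Among the sensors of the pathway all but Srebf1 rose. Insig1, which retains SREBPs and is itself a known SREBP target, had 0.35, 0.51, 0.24 and 0.44 (mean 0.39 ± 0.11, adjusted p = 0.00125), all above 0. Srebf2 had 0.25, 0.15, 0.22 and 0.24 (mean 0.22 ± 0.05, adjusted p = 0.00868), and its second probe gave 0.21 ± 0.14. Scap and Insig2 rose by 0.18 ± 0.07 (adjusted p = 0.0238) and 0.17 ± 0.09 (adjusted p = 0.0212). The call of Insig2 was lost without array 1, 2 or 3 (adjusted p = 0.0551 to 0.0951) and that of Scap without array 1, 2 or 4 (0.057 to 0.105). Srebf1 had 0.0019, -0.12, -0.03 and -0.02, and its mean of -0.04 ± 0.05 did not pass (adjusted p = 0.486, 95% confidence interval -0.14 to 0.06).

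Of the 3 transport genes, Abca1 changed most. Abca1, which exports cholesterol across the plasma membrane, had -0.39, -0.39, -0.77 and -0.35. All 4 arrays lay below 0, array 3 by far the lowest, and the mean of -0.47 ± 0.20 was a fall to 0.72 of the control (adjusted p = 0.00305), or -0.38 without array 3. Its control channel ran from 14.81 to 15.14 and its treated channel from 14.31 to 14.75. Abcg1, a related exporter, was also below 0 on all 4 arrays, at -0.02, -0.12, -0.25 and -0.08, but did not pass (mean -0.12 ± 0.10, adjusted p = 0.121). Stard4, which carries sterols between membranes and is a known SREBP target, had 0.27 and 0.51 with treated RNA in red and 0.05 and 0.05 with treated RNA in green. Its mean of 0.22 ± 0.22 passed the test with a dye term (adjusted p = 0.0183) but not without array 3 (adjusted p = 0.0736).

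Genes that supply and build fatty acids moved both ways. Acly, which makes cytosolic acetyl-CoA from citrate for both pathways, had 0.24, 0.23, 0.22 and 0.17 (mean 0.21 ± 0.03, adjusted p = 0.00785), the smallest spread of the 36 genes, though it did not pass under median centering (adjusted p = 0.0873). Acss2, which makes the same compound from acetate, had 0.07, 0.01, 0.13 and 0.24 and did not pass (mean 0.11, adjusted p = 0.142). Acaca, the acetyl-CoA carboxylase that commits carbon to fatty acids, had -0.09, -0.19, -0.07 and -0.22 (mean -0.14 ± 0.07, adjusted p = 0.0302), and its 3 other probes were also lower, at -0.16, -0.26 and -0.35. The probe at -0.16 almost coincides with the brightest one (chromosome 11, starts at 84215094 and 84215093). Those at -0.26 and -0.35 are dimmer, with mean log2 signals of 9.4 and 8.2 beside 14.4. Fasn, the synthase that follows Acaca, had 0.35, 0.07, 0.16 and 0.14 (mean 0.18 ± 0.12, adjusted p = 0.0302). Acaca, before malonyl-CoA, and Fasn, after it, therefore differed in the sign of their change. This did not hold for the whole step before malonyl-CoA. Acacb, a 2nd acetyl-CoA carboxylase gene outside the 36, had 0.26, 0.13, 0.23 and 0.21 (mean 0.21 ± 0.06, adjusted p = 0.00971). Acacb is named for its step in the pathway, after its values were seen.

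Of the desaturases and elongases 1 of 6 genes passed the test. Elovl6, which extends palmitate, was that gene, with 0.24, 0.37, 0.07 and 0.16 (mean 0.21 ± 0.13, adjusted p = 0.0258). Scd1, the desaturase of saturated fatty acids, had 0.21, 0.16, -0.26 and -0.12, so that arrays 1 and 2 lay above and arrays 3 and 4 below 0. Its mean was near 0 (SD 0.23, adjusted p = 0.998), with a sign that turned with the processed signals and without array 3 or 4. Its paralog Scd2 had -0.10, -0.02, -0.14 and 0.07 (mean -0.05, adjusted p = 0.401). Fads1 and Elovl5 were at 0.12 each (adjusted p = 0.103 and 0.0787). Fads2 was at -0.02 (adjusted p = 0.813), a sign that turned in the series table and without array 3.

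Of the 4 calls in fatty acid synthesis, 3 were lost in at least 1 of the fits that left out an array. Such fits have fewer values, and 2878 to 3345 of all genes tested rose in them, against 4068 with all arrays. The call of Acaca was lost without any 1 array (adjusted p = 0.0867 to 0.112), though its mean stayed between -0.150 and -0.136. That of Fasn was lost without array 1, 2 or 4 (0.0527 to 0.128) and that of Elovl6 without array 1 or 2 (0.104 and 0.0964). Accordingly 1 fatty acid gene rose without array 1 and 1 without array 2, where 3 rose with all arrays. Without any 1 array, 1 of the 36 genes fell, Abca1. Sterol synthesis kept 12 to 13 genes past the test in each such fit. Under median centering in place of loess 16 of the 36 genes rose, 12 of them in sterol synthesis and 1, Fasn, in fatty acid synthesis, while Acly and Elovl6 (adjusted p = 0.14) no longer passed.

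Set side by side, the sterol synthesis genes had a median log2 ratio of 0.31, 0.28, 0.31 and 0.25 on arrays 1 to 4, and the fatty acid genes 0.12, 0.05, 0.02 and 0.15. The sterol median lay above the fatty acid median on every array, by 0.19, 0.24, 0.30 and 0.10, a mean difference of 0.21 ± 0.08 (SD, n = 4; no test was made over the lists). With means in place of medians the difference was 0.23 ± 0.05. The median of all genes tested lay between -0.0025 and 0.0093 on the 4 arrays. Within sterol synthesis the 3 stretches were alike, with mean medians of 0.28 ± 0.06 for the early, 0.30 ± 0.04 for the middle and 0.30 ± 0.05 for the late steps. Within each dye order the sterol median averaged 0.31 with treated RNA in red and 0.27 in green, and the fatty acid median 0.07 and 0.10.

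**Figure D2:**
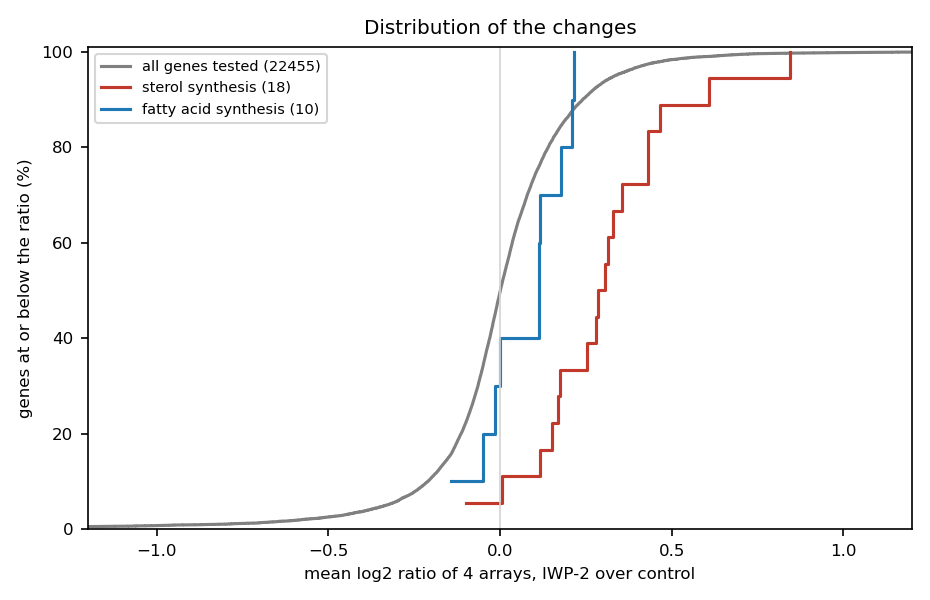
Share of genes (y axis, percent) at or below a given mean log2 ratio of IWP-2 over control (x axis) for all genes tested, sterol synthesis genes and fatty acid synthesis genes. The curve of the 18 sterol genes lies to the right of the curve of all genes up to its last gene, while all 10 fatty acid genes lie between -0.14 and 0.21.

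Markers of other cell types moved in the same explants, and since the RNA is from whole ureters a change in the number of cells of a type and a change in RNA per cell cannot be told apart. All 7 epithelium markers rose, by 0.24 to 0.34, with list medians of 0.22, 0.39, 0.41 and 0.29 on the 4 arrays. Endothelium markers rose at 4 of 6 genes and blood markers at 4 of 6. Macrophage markers rose at 4 of 5 measured and neural crest markers at 3 of 6. The medians of the mean ratios of these lists were 0.19, 0.27, 0.19 and 0.26, in that order. The blood median averaged 0.40 with treated RNA in red and 0.08 in green, and 2 of the 6 blood markers were above 0 on all 4 arrays. Of the 6 mesenchyme markers 1 rose, Pdgfrb (0.80), and 1 fell, Tbx18 (-0.74), and the median was 0.02. Every marker measured was well above background in at least 1 group. The epithelium markers lay in the same range as the sterol synthesis genes, with a median of 0.33 beside 0.29 (means of the 4 arrays). Of the 18 sterol synthesis genes 6, among them Tm7sf2 and Msmo1, lay above the highest of the 7 epithelium markers. The part of these cell types in the sterol result was not tested.

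**Figure D3:**
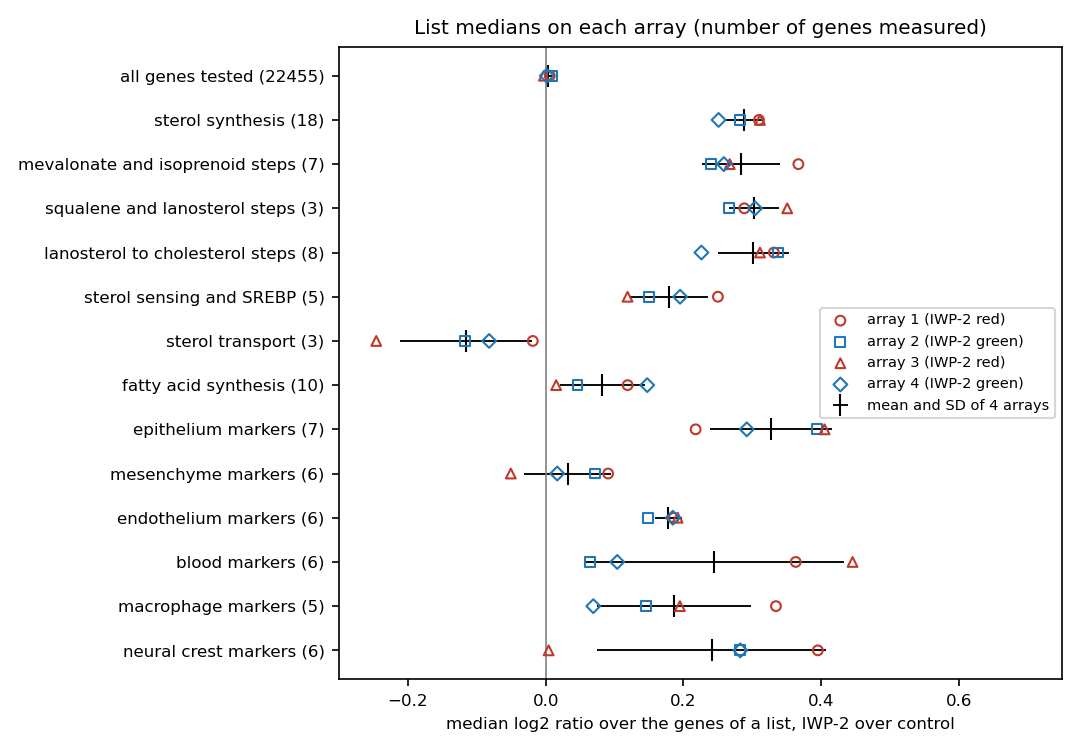
Median log2 ratio of IWP-2 over control (x axis) over the genes of each list (y axis, number of genes measured in parentheses); open symbols are the 4 arrays and the black tick and line their mean and SD. The sterol synthesis medians lie between 0.25 and 0.31 and the fatty acid medians between 0.02 and 0.15, while the epithelium markers lie between 0.22 and 0.41.

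The 14 genes with more than 1 probe gave a further look at the same pools. The probes of 13 of them shared a sign, with Hsd17b7 as the exception. Hmgcs1 and Fdft1, whose second probes are dim, had smaller ratios there, 0.15 ± 0.07 and 0.12 ± 0.16, and that of Fdft1 did not pass over all probes (adjusted p = 0.165). The second probe of Acly gave 0.10 ± 0.10 (adjusted p = 0.142), and that of Stard4 gave 0.20 ± 0.40 with 0.78 on array 3 and -0.15 on array 4 (adjusted p = 0.177). The second probes of Pmvk, Insig2 and Srebf2 passed, like the brightest ones, with means of 0.18, 0.20 and 0.21.

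**Figure D4:**
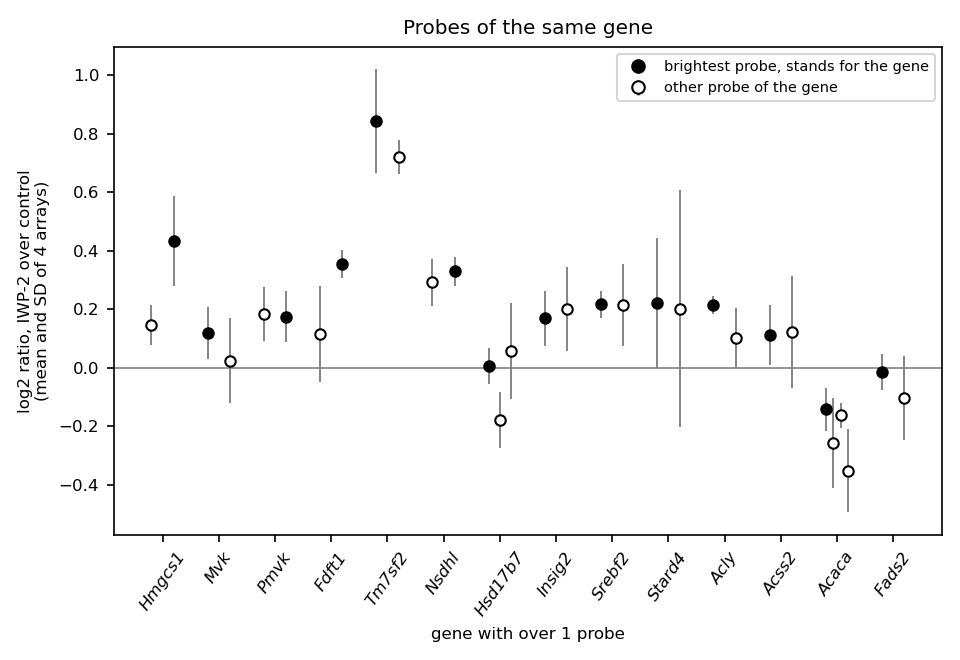
Mean log2 ratio of IWP-2 over control (y axis; lines are the SD of 4 arrays) of each probe of the 14 genes with more than 1 probe (x axis); filled points are the brightest probe, which stands for the gene, and open points the others. Both probes of Tm7sf2 lie above 0.7, all 4 probes of Acaca lie below 0, and the 3 probes of Hsd17b7 lie on both sides of 0.

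Further genes of both pathways, from lists of 10 each, moved both ways. Of the 10 other sterol genes 2 rose and 2 fell, near the shares of all genes tested, 18.1% and 15.0%. The median of their mean ratios was -0.0033. Mylip, an LXR target whose product marks lipoprotein receptors for degradation, had -1.16, -1.07, -1.18 and -1.09, a lower ratio on every array than any of the 36 genes. Its mean was -1.12 ± 0.05, a fall to 0.46 of the control (adjusted p = 2.00e-05). Soat1, which esterifies cholesterol for storage, rose by 0.34 ± 0.23 (adjusted p = 0.00681), and Nr1h3, which encodes an LXR receptor, rose by 0.31 ± 0.11 (adjusted p = 0.00352). Tmem97, a membrane protein linked to sterol trafficking, fell (-0.25 ± 0.08, adjusted p = 0.00647). Of the 10 other fatty acid genes 4 rose and 2 fell, and the median of their mean ratios was 0.08. Elovl7, an elongase, rose by 0.26 ± 0.08 (adjusted p = 0.00649), Lpin1, a phosphatidate phosphatase, by 0.24 ± 0.09 (adjusted p = 0.0126) and Elovl1, an elongase of long chains, by 0.21 ± 0.07 (adjusted p = 0.0127). Gpam, which starts glycerolipid synthesis, fell (-0.27 ± 0.09, adjusted p = 0.00835).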

How the data were processed

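Per the labels, total RNA from pools of ureters was amplified, labeled with AlexaFluor555 or AlexaFluor647 and hybridized to Agilent arrays. The deposited scanner files (Feature Extraction 10.7.3.1) hold raw spot and local background intensities, processed intensities (background-subtracted and dye-normalized) and flags. The deposited log10 ratio of red over green served to check directions. The authors' series table, a score of signed fold changes whose normalization is not stated, followed the processed ratios with r of 0.988 to 0.992 across 20405 bright probes (column medians 0) and served as an alternative. Raw intensities were corrected in limma 3.58.1 (R 4.3.3) with normexp (offset 50) and loess (span 0.3). Control and outlier spots (3.01% to 3.38%) were left out and the 4 spots of a probe averaged. A probe was kept if over 0.5 of its spots were well above background in one group on all 4 arrays, which left 29933 probes, and the brightest stood for its gene. Log2 ratios of IWP-2 over control were fitted with lmFit and eBayes on treatment and a dye term. Adjusted p-values (limma, two-sided) were corrected by Benjamini-Hochberg across 22455 genes, with a threshold of 0.05. The dye term passed for 0 genes (4233 at an unadjusted p under 0.05), and the SD given with a mean still includes the dye effect. The method was tested on simulated data. Probe positions are on mm9. The 36 genes and all lists were chosen with earlier results of these data known. All 36 are named, and of other pathway genes those past the test, up to 4 per list by size, with Lbr and Acacb added for their steps. One item is not reported here. Emr1, a macrophage marker, has no probe of that name. The number of arrays limits the precision.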

Additional observations from a re-analysis of the deposited data

Results flagged for a closer look

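Among 39 series of 4 array values examined for a single array far from the others, 1 stood out, where chance gives about 1.95. Abca1 had a log2 ratio of -0.77 on array 3 and of -0.39 to -0.35 on the other 3 arrays. Stard4, with a ratio of 0.51 on the same array, and Abcg1, with -0.25, also had their most extreme value there, though neither stood out by the same measure. Whether these values share a source was not tested.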

How the results depend on the processing

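Across 17 refits, 8 genes (Hmgcs1, Idi1, Fdft1, Lss, Tm7sf2, Msmo1, Nsdhl and Insig1) passed the test in each. In the 14 refits where it was computed the sterol minus fatty acid difference lay between 0.177 and 0.241. It stayed at 0.207 with quantile normalization between arrays, with the other filters and with no replicate block. These refits kept the same ratios for these genes and so say nothing on how stable the difference is. The quantile normalization also left the calls as they were. With the sensing and transport genes added to the sterol list the difference was 0.168. In the authors' series table, rounded to 1 decimal, 11 of the 36 genes rose and 1 fell, 8 sterol synthesis genes and 1 fatty acid gene rose, 1 other pathway gene rose and 2 fell, 1833 genes rose and 2050 fell in all, and the sterol median was 0.32; Scd2 passed there (-0.07, adjusted p = 0.00754). With no replicate block, that is with the 8 channels as unpaired samples, 16 of the 36 genes rose and 1 fell, 2 other pathway genes fell, and 2040 genes rose and 2069 fell in all; Mvd (adjusted p = 0.0562) and Srebf2 (0.221) were among the 8 calls lost. With the processed signals 19 of the 36 genes rose and 1 fell. With no dye term 18 rose and 1 fell, and Acat2 (adjusted p = 0.136), Sqle (0.0811), Insig2 (0.0536), Stard4 (0.0968), Acaca (0.072) and Fasn (0.061) no longer passed. Median centering gave 16 of the 36 genes and 1 fatty acid gene higher and a sterol median of 0.26. Leaving out 1 array gave 1 gene lower in each case (range 1 to 1), 17 to 19 higher, 1 to 3 fatty acid genes higher, and 2180 to 2813 genes lower in all. The mean of Hsd17b7 turned to -0.010 under median centering, -0.039 in the mean of all probes and -0.034 in the series table, and ran from -0.012 to 0.024 with 1 array left out. That of Scd1 turned to 0.0054 with processed signals and ran from -0.12 to 0.12 with 1 array left out, and that of Fads2 turned to 0.034 in the series table and ran from -0.050 to 0.019. The cause was not tested. The median of all genes moved between -0.011 and 0.0073. Slide and scan as a block were not run, since all arrays share them.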
